A study of Danio rerio with 5 samples.

Results

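All cells that were sorted from the eyes of foxc1b reporter embryos at 96 and at 72 hours post fertilization (hpf) were compared as whole populations, and every gene was read in them. The counts of all cells were summed within each library, so that 4 libraries, A and B of each time point, took the place of single cells as the units of comparison. These 4 libraries held 3309 of the 12234 cells of the time course. The 96 hpf libraries came from Tg[foxc1b:GFP] zebrafish embryos of that age, with 478 cells in A and 1452 cells in B, and the 72 hpf libraries came from younger embryos of the same line, with 722 cells in A and 657 in B. By the methods, embryos of both groups were raised in PTU, a blocker of melanin formation, after the initial day, and no other treatment is named. In both groups GFP was driven by regulatory sequence of foxc1b, whole eyes were dissected and dissociated, and the GFP-positive fraction was taken by flow cytometry, so the populations hold any eye cell in which the reporter was active. The study states that its replicates at each time point were independent biological ones, and the letters A and B come from the deposited table of cells.

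The anterior segment of the fish eye is built from cells of several origins. Surface ectoderm gives the corneal epithelium, and periocular mesenchyme, much of it derived from the neural crest, gives the corneal stroma and endothelium, the iris stroma and the annular ligament, the fish structure at the angle between iris and cornea. foxc1b encodes a forkhead transcription factor of periocular mesenchyme and is a duplicate of foxc1a. Over the interval compared here the hatched fish begins to use its eyes, and dividing cells of the retina become confined to its margin.

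Summed UMIs (unique molecular identifiers, 1 per captured transcript) were 2173620 and 7443148 in the 96 hpf libraries A and B and 3434852 and 2531870 in the 72 hpf libraries A and B. Levels below are UMIs per 1000000 UMIs of the library (CPM). The eGFP feature had 0 UMIs in every library, so the sort could not be checked by the reporter's own transcript. foxc1b itself was present at 100 and 69.3 CPM in the 96 hpf libraries, against 64.3 and 94.0 CPM in the 72 hpf libraries, with overlapping values. By the table of cells, 96 hpf A and 72 hpf B share a batch and a chemistry (V3), 96 hpf B is from another batch (V3), and 72 hpf A is from a batch of its own (V2). The sources conflict here: a second deposited table gives 96 hpf A a different batch name, the sample labels give the V2 protocol for the libraries, and the methods give V3, so the chemistry of each library is not settled. Across genes, log2(CPM + 1) of 96 hpf A was closest to 72 hpf B (r = 0.924) and to 96 hpf B (r = 0.923), and 72 hpf A stood apart from all others (r of 0.804 to 0.844). Because 72 hpf A differs in batch and in similarity, the ratio of 96 hpf A to 72 hpf B is given beside the values of all 4 libraries.

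Markers of other cell types differed among libraries more than between the ages. Summed pigment markers (10 measured) reached 6114 and 35.9 CPM at 96 hpf and 45.4 and 7134 CPM at 72 hpf, so they were high in the 2 libraries of the shared batch. Retinal progenitor markers (13 measured) summed to 1670 and 1046 CPM at 96 hpf and to 8435 and 892 CPM at 72 hpf, high in 72 hpf A alone. Most of that high sum came from 1 of them, fabp7a, with 1161 and 662 CPM at 96 hpf against 7920 and 563 CPM at 72 hpf. hbbe1.1, an embryonic globin, had 0 and 0.134 CPM at 96 hpf against 0 and 197 CPM at 72 hpf, and rho, rod opsin, had 0 and 366 CPM at 96 hpf against 0 and 1.18 CPM at 72 hpf. These 2 genes were chosen after their values were seen, and each was high in 1 library. Immune cell markers summed to under 1 CPM in each library, with 4 of the 7 measured at 0 in all of them. Between 11 and 15 cell barcodes were shared by each pair among 96 hpf A, 96 hpf B and 72 hpf B, and 28 cells (0.846% of cells, 0.146% of UMIs) were shallow copies of a deeper cell with the same barcode in another of these libraries.

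Genes were named over all sorted cells from those at 20 CPM or more whose libraries did not overlap between the ages. Of these, the genes with the smallest p among those higher at 96 hpf were scinla, lpin1, bgnb, mmp30, slc22a13b and oct2. Among those lower they were zgc:172053, zwi, ociad2 and stm. No gene passed the adjusted threshold: edgeR's quasi-likelihood test called 0 of 8918 genes higher (0.0%) and 0 lower (0.0%) at a Benjamini-Hochberg adjusted p of 0.05, and the smallest adjusted p was 0.287. At an unadjusted p under 0.05, 341 genes (3.82%) were higher at 96 hpf and 315 (3.53%) lower, 656 in all (7.36%). DESeq2 called 65 genes higher and 22 lower on the same counts. The genes described next were therefore not called, and their values are descriptions of these 4 libraries.

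scinla, a gelsolin-family actin-binding protein that is abundant in the zebrafish cornea and marks the annular ligament, had 7570 and 6033 CPM in the 96 hpf libraries A and B, against 715 and 1062 CPM in the 72 hpf libraries A and B. Both 96 hpf libraries lay above both 72 hpf libraries, with a log2 difference of 3.13 ± 0.39 (approximate SE, edgeR adjusted p = 0.287). In the pair from the shared batch the log2 ratio was 2.83 (95% Poisson interval for counting error 2.77 to 2.89). lpin1, a phosphatidate phosphatase of triglyceride synthesis, had 59.8 and 66.1 CPM at 96 hpf against 1.46 and 5.13 CPM at 72 hpf. Its log2 difference was 4.52 ± 0.63, and 3.49 in the shared batch (2.72 to 4.49).

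Several genes of the matrix and its remodelling showed the same order. bgnb, a biglycan of the small leucine-rich proteoglycans, had 139 and 103 CPM at 96 hpf and 5.53 and 13.4 CPM at 72 hpf, a log2 difference of 3.89 ± 0.54. The metalloproteinase gene mmp30 had 225 and 243 CPM at 96 hpf and 15.7 and 29.2 CPM at 72 hpf (3.61 ± 0.50). timp4.3, an inhibitor of metalloproteinases, had 72.7 and 102 CPM at 96 hpf and 1.46 and 9.48 CPM at 72 hpf (4.3 ± 0.80). In the shared batch their log2 ratios were 3.36, 2.94 and 2.91.

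The other genes higher at 96 hpf included transporters and enzymes. slc22a13b, an organic anion transporter, had 30.8 and 66.6 CPM at 96 hpf against 0.582 and 2.37 CPM at 72 hpf, with a log2 difference of 5.35 ± 0.79. The related transporter gene oct2 had 65.8 and 40.7 CPM at 96 hpf against 7.28 and 5.53 CPM at 72 hpf (3.19 ± 0.48). pdk2b, a kinase that restrains pyruvate dehydrogenase, had 104 and 66.6 CPM at 96 hpf against 8.73 and 19.0 CPM at 72 hpf (2.82 ± 0.51). ptgdsb.1, a prostaglandin D synthase, was more abundant, with 1822 and 809 CPM at 96 hpf against 167 and 247 CPM at 72 hpf (2.83 ± 0.51). klf9, a Krüppel-like transcription factor that responds to glucocorticoids, had 19.8 and 54.0 CPM at 96 hpf against 2.91 and 3.55 CPM at 72 hpf (3.76 ± 0.69). CU693494.2 had 4340 and 2834 CPM at 96 hpf against 662 and 320 CPM at 72 hpf (3.00 ± 0.54), and NM_200440, klhl24b in RefSeq, had 38.6 and 56.8 CPM against 8.44 and 10.7 CPM (2.54 ± 0.48). In the shared batch the log2 ratios of these 12 genes lay between 1.84 and 3.76, with a direction that their selection for non-overlap fixed. The adjusted p was 0.287 for scinla, lpin1, bgnb, mmp30, slc22a13b and oct2 and 0.454 for the other 6.

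The genes lower at 96 hpf included agr2, stm, nkx3-2, gsc and cxcl12b. agr2, a protein disulfide isomerase of secretory epithelia, had 46.9 and 33.1 CPM at 96 hpf against 1030 and 252 CPM at 72 hpf, a log2 difference of -3.90 ± 0.80 and of -2.42 in the shared batch. The starmaker gene stm had 34.5 and 25.0 CPM at 96 hpf against 426 and 174 CPM at 72 hpf (-3.21 ± 0.62). creld2 and fkbp11, both proteins of the endoplasmic reticulum, had log2 differences of -2.01 and -1.82. The homeobox gene nkx3-2 had 9.66 and 10.3 CPM at 96 hpf against 54.2 and 37.1 CPM at 72 hpf (-2.00 ± 0.47). A second homeobox gene, gsc, had 12 and 4.03 CPM at 96 hpf against 32.3 and 68.7 CPM at 72 hpf (-2.54 ± 0.61). cxcl12b, a chemokine that guides migrating cells, had 6.90 and 2.96 CPM at 96 hpf against 49.2 and 24.9 CPM at 72 hpf (-2.86 ± 0.62). The adjusted p of these 7 genes by edgeR lay between 0.454 and 0.520, and their lack of overlap was a condition of their choice.

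The remaining 5 were zgc:172053, zwi, ociad2, zgc:194627 and cox6b1. zgc:172053 had 0 and 0.269 CPM at 96 hpf against 18.9 and 109 CPM at 72 hpf, 2 UMIs in all at 96 hpf against 340 at 72 hpf. The ratio of 72 hpf over 96 hpf was 274, with a counting interval of 75.3 to 2272. zwi had 4.6 and 6.58 CPM at 96 hpf against 40.5 and 52.5 CPM at 72 hpf (-2.79 ± 0.47). ociad2 had 10.1 and 14 CPM at 96 hpf against 79.2 and 94.0 CPM at 72 hpf (-2.61 ± 0.46). zgc:194627 had 6.90 and 5.78 CPM at 96 hpf against 41.0 and 26.5 CPM at 72 hpf (-2.26 ± 0.49). The 96 hpf libraries lay below both 72 hpf libraries for each of these genes, as their selection required. cox6b1, a subunit of cytochrome c oxidase, had 4.14 and 7.12 CPM at 96 hpf against 45.1 and 26.5 CPM at 72 hpf (-2.42 ± 0.57).

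**Figure D1:**
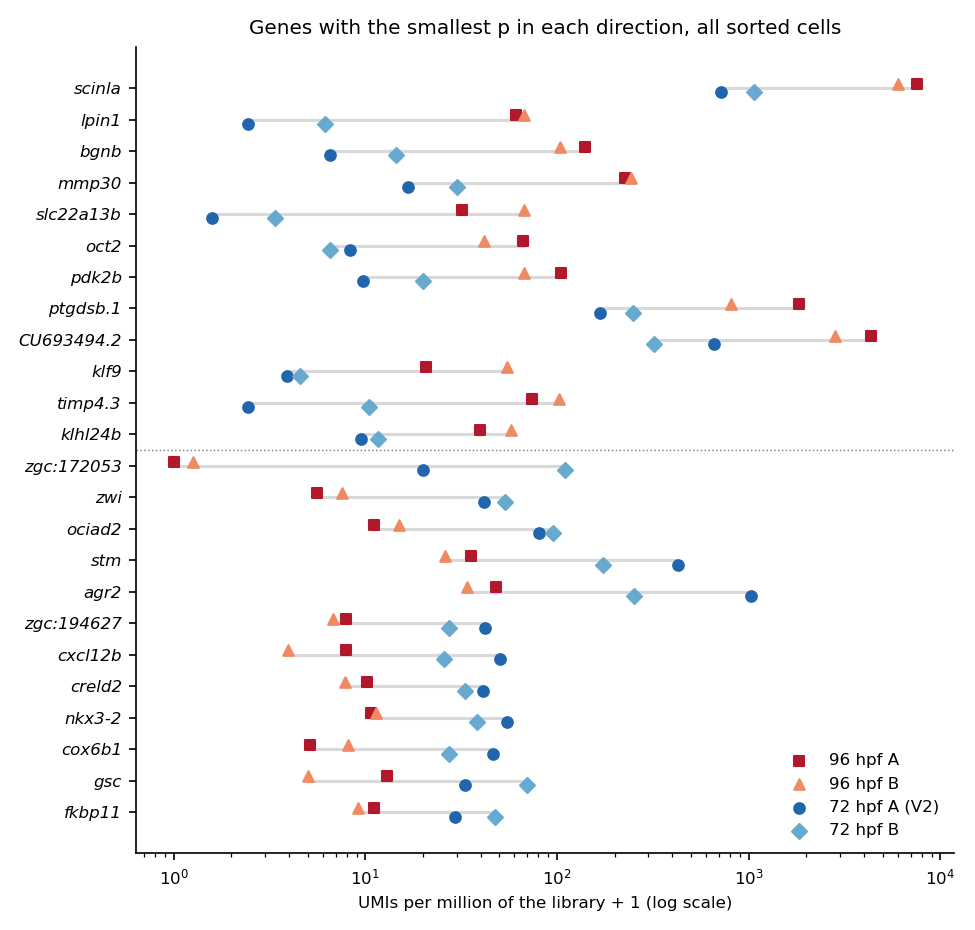
CPM + 1 (log axis) of the 12 genes of smallest p in each direction among those that did not overlap, 1 point per library, 96 hpf A and B and 72 hpf A and B. That choice fixes that the 2 points of 96 hpf lie on one side of the 2 points of 72 hpf. scinla is the most abundant, with 7570 and 6033 CPM at 96 hpf against 715 and 1062 CPM at 72 hpf.

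By CPM, 1213 of the 8918 genes (13.6%) were higher in both 96 hpf libraries than in both 72 hpf libraries, and 2888 (32.4%) were lower in both, 46.0% in either direction. This split depended on scaling. With TMM-scaled totals 1901 genes (21.3%) were higher and 1987 (22.3%) lower, and the median log2 difference over all genes was -0.025, against -0.21 with library totals alone. The log2 differences given here are after TMM, and counts of genes that did not overlap are by CPM unless stated. Ratios of 96 hpf A to 72 hpf B are by library totals without TMM, with a median of -0.18 over all genes.

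Genes of cell division stood on the lower side at 96 hpf. Over all genes 32.4% were lower in both 96 hpf libraries by CPM and 22.3% after TMM scaling. By edgeR, 3.53% were lower at an unadjusted p under 0.05. Of 26 tested genes of mitosis, none was higher and 23 were lower in both 96 hpf libraries (21 after TMM scaling), 15 had an unadjusted p under 0.05, and their median log2 difference was -1.28. ube2c, which loads ubiquitin for the anaphase-promoting complex, had 46.9 and 36.1 CPM at 96 hpf against 207 and 97.6 CPM at 72 hpf (-1.74 ± 0.54, unadjusted p = 0.0151 by edgeR). cdk1, the mitotic kinase, had 83.3 and 37.8 CPM at 96 hpf against 210 and 91.6 CPM at 72 hpf. Not all members separated the ages. top2a had 121 and 81.0 CPM at 96 hpf against 107 and 180 CPM at 72 hpf, with overlap. mki67 had 110 and 113 CPM at 96 hpf against 77.7 and 185 CPM at 72 hpf, also with overlap. Of 31 DNA replication genes, 27 were lower in both libraries (19 after TMM scaling) with a median of -0.67. pcna, the sliding clamp of DNA polymerase, had 424 and 295 CPM at 96 hpf against 960 and 484 CPM at 72 hpf. The ribonucleotide reductase gene rrm2 had 232 and 112 CPM at 96 hpf against 702 and 329 CPM at 72 hpf, and dut, a dUTPase, had 100 and 95.9 CPM against 291 and 248 CPM.

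Chromatin, RNA-processing and protein-turnover genes followed the same order. The counts below stand beside 32.4% of all genes lower and 13.6% higher by CPM, and 22.3% lower after TMM scaling. By edgeR, 3.53% of all genes were lower at an unadjusted p under 0.05. Of 12 high mobility group genes, 9 were lower in both 96 hpf libraries and 6 had an unadjusted p under 0.05, with a median of -1.21. hmgb2a, a DNA-bending protein of dividing cells, had 875 and 648 CPM at 96 hpf against 4976 and 1634 CPM at 72 hpf (-2.00). Of 38 proteasome subunits, 37 were lower in both libraries (32 after TMM scaling) with a median of -0.87, although none had an unadjusted p under 0.05. psmb7, a catalytic subunit, had 156 and 161 CPM at 96 hpf against 479 and 286 CPM at 72 hpf. RNA-binding and nucleolar genes had a median of -0.72, with 14 of 23 lower and 1 higher in both libraries. For oxidative phosphorylation the result depended on scaling: 67 of 88 genes were lower in both libraries by CPM, but 37 after TMM scaling, with a median of -0.55. Summed levels of the high mobility group genes were 4999 and 3653 CPM at 96 hpf against 18547 and 8359 CPM at 72 hpf, highest in 72 hpf A. The sum of retinal progenitor markers was also highest in that library, mostly through fabp7a (7920 CPM). The pair without 72 hpf A gave medians of -0.77 for mitosis, -0.41 for DNA replication, -0.77 for high mobility group genes and -0.50 for the proteasome, beside -0.18 over all genes. No gene of the mitosis, DNA replication or proteasome lists was higher in 96 hpf A than in 72 hpf B, while 3348 of all 8918 genes were.

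Annular ligament and tyrosine breakdown genes were the list with the highest median, 2.14. Of 9 tested, 8 were higher in both 96 hpf libraries and 6 were higher at an unadjusted p under 0.05, beside 13.6% and 3.82% of all genes. hgd, homogentisate dioxygenase of tyrosine breakdown, had 146 and 196 CPM at 96 hpf against 20.7 and 47.0 CPM at 72 hpf (2.59 ± 0.54, and 1.63 in the shared batch). pcbd1 and qdpra, which regenerate the cofactor of phenylalanine hydroxylase, had 234 and 247 CPM and 152 and 178 CPM at 96 hpf. At 72 hpf pcbd1 had 39.6 and 146 CPM and qdpra had 1.46 and 77.8 CPM, lowest in 72 hpf A for both genes. The median of the list in the shared batch was 0.97. scinla, lxn, hgd, hpdb and myoc of this list are also among the markers that named clusters here, so the list is not independent of the cell classes used below.

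Mural and vascular genes had a median of 1.18 in the full comparison and 0.65 in the shared batch, with 5 of 11 higher and none lower in both 96 hpf libraries. The shares over all genes by CPM were 13.6% higher and 32.4% lower. myh11a, a smooth muscle myosin, had 92.9 and 68.7 CPM at 96 hpf against 5.82 and 22.9 CPM at 72 hpf (2.73 ± 0.63). Other members of the list overlapped between the ages. ednraa had 117 and 73.4 CPM at 96 hpf against 90.3 and 74.6 CPM at 72 hpf. For rgs5a the levels were 155 and 60.5 CPM at 96 hpf against 61.7 and 50.2 CPM at 72 hpf. notch3 had 87.9 and 106 CPM at 96 hpf against 13.1 and 103 CPM at 72 hpf. The lipid and vitamin A carriers apoeb and rbp4 were also higher. apoeb had 3346 and 2372 CPM at 96 hpf against 1139 and 784 CPM at 72 hpf (1.72 ± 0.43, and 2.09 in the shared batch). rbp4 had 5098 and 4350 CPM at 96 hpf against 1619 and 2714 CPM at 72 hpf (1.33 ± 0.38). Their list of fatty acid binding and lipid transport genes did not move one way, with 2 of 15 higher and 2 lower in both libraries and a median of -0.14. Of all genes 13.6% were higher and 32.4% lower.

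For some matrix and stress lists the median in the shared batch had the opposite sign. That pair is by library totals without TMM, with a median of -0.18 over all genes, against -0.025 over the 4 libraries after TMM. Hemidesmosome and basement membrane genes had a median of 1.1 over the 4 libraries and of -0.48 in the shared batch. col17a1a, which anchors basal epithelial cells, had 321 and 695 CPM at 96 hpf against 44.8 and 266 CPM at 72 hpf, and its ratio in the shared batch was 0.27 on the log2 scale. col4a5, a basement membrane collagen, had 233 and 429 CPM at 96 hpf against 10.2 and 369 CPM at 72 hpf, and was lower in 96 hpf A than in 72 hpf B (-0.66). 72 hpf A was lowest for both genes. Cartilage matrix genes had the same sign in both, -0.02 over the 4 libraries and -0.82 in the shared batch. Fibrillar collagens had a median of 0.73 over the 4 libraries and of -0.22 in the shared batch, and immediate early and stress genes had 0.53 and -0.15. The shared-batch medians of both lists lay near the -0.18 of all genes, so their sign is not to be read as a turn. Age and batch cannot be told apart in these values.

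Transcription factors were mixed. Of 19 tested anterior segment factors, 4 were higher and 8 lower in both 96 hpf libraries by CPM, and 7 and 8 after TMM scaling. pax6a, a regulator of eye and corneal epithelium, had 204 and 169 CPM at 96 hpf against 95.5 and 73.5 CPM at 72 hpf (1.31 ± 0.44, and 1.47 in the shared batch). eya1, a transcriptional coactivator of periocular and placodal tissue, had 98.5 and 71.9 CPM at 96 hpf against 109 and 164 CPM at 72 hpf. Of 22 neural crest and mesenchyme factors, 10 were lower and none higher in both 96 hpf libraries by CPM, and 9 and 2 after TMM scaling. Their median was -0.50, and -0.74 in the shared batch. Among claudins and tight junction genes 8 of 15 were lower and none higher by CPM, and 8 and 1 after TMM scaling, also with a median of -0.50. Of all genes 32.4% were lower and 13.6% higher by CPM, and 22.3% and 21.3% after TMM scaling. cldnb, a claudin of surface epithelium, had 175 and 130 CPM at 96 hpf against 737 and 453 CPM at 72 hpf (-1.82 ± 0.49, and -1.37 in the shared batch).

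Over all sorted cells, epithelial keratins stood more often on the higher side, though not all of them, and their split by cell class is given below. Of 16 tested, 7 were higher and 3 lower in both 96 hpf libraries (7 and 1 after TMM scaling). Among all genes 13.6% were higher and 32.4% lower by CPM. The keratins had a median of 0.16, with 12 of 16 above 0 over the 4 libraries and 9 in the shared batch. krt5, a basal keratin, had 12868 and 14495 CPM at 96 hpf against 8924 and 8262 CPM at 72 hpf (0.86, and 0.64 in the shared batch). Cytosolic ribosomal protein genes, the most abundant group, had 31 of 81 higher and none lower in both 96 hpf libraries under either scaling, with medians of 0.23 over the 4 libraries and 0.26 in the shared batch. The summed level of these ribosomal genes overlapped, at 307953 and 310666 CPM at 96 hpf against 318632 and 257812 CPM at 72 hpf, highest in 72 hpf A. Neurogenic and Notch pathway genes had 2 of 27 higher and 8 lower by CPM, near the share of all genes, and 4 higher and 2 lower after TMM scaling, with a median of -0.63 that was -0.08 in the shared batch. Mueller glia genes had medians of opposite sign, -0.37 over the 4 libraries and 0.55 in the shared batch. Their summed level was 7044 and 4790 CPM at 96 hpf against 13391 and 2860 CPM at 72 hpf. Of the 13391 CPM in 72 hpf A, 7920 CPM came from fabp7a, which is also among the retinal progenitor markers. fabp7a had 1161 and 662 CPM at 96 hpf and 563 CPM in 72 hpf B.

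**Figure D2:**
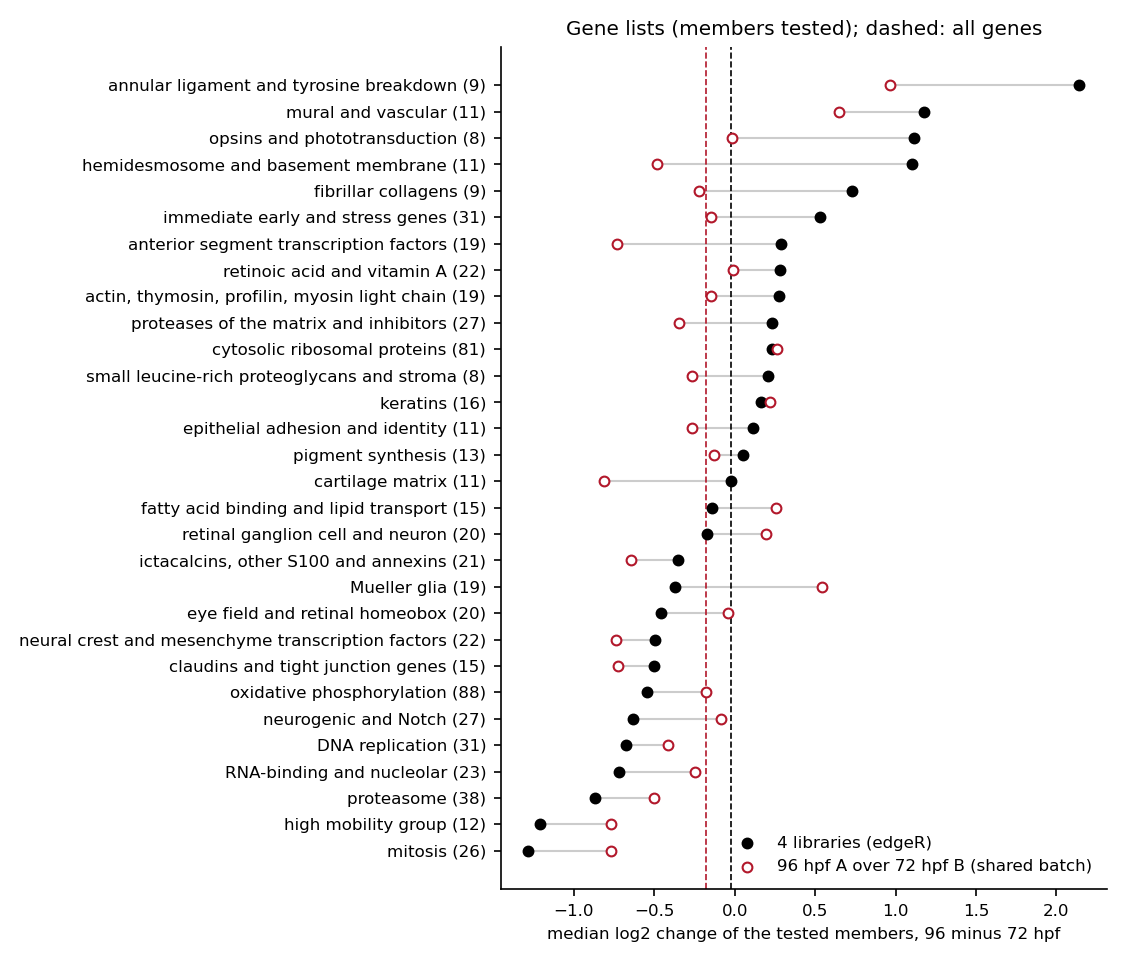
Median log2 change (96 minus 72 hpf) of the tested members of each gene list over the 4 libraries and for 96 hpf A over 72 hpf B, with the number tested and the median of all genes as a dashed line. Values over the 4 libraries are after TMM, and those of the pair are by library totals without TMM. Mitosis (-1.28 and -0.77) and high mobility group genes (-1.21 and -0.77) lie below 0 in both, and hemidesmosome and basement membrane genes (1.1 and -0.48) change side.

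In whole sorted populations, the CPM of a gene can change with the mix of cell types or with its level inside a cell type. To view these apart, cells of each time point were clustered and the clusters were joined into broad classes by marker genes: mesenchyme-like (periocular, stromal, endothelial, annular ligament, cartilage and mural markers), epithelium-like, retinal or neural-like, and pigment-like. Mesenchyme-like cells were 43.7% and 37.1% of the cells in the 96 hpf libraries A and B, against 37.7% and 39.6% in the 72 hpf libraries A and B. Epithelium-like cells were 23.6% and 49.3% at 96 hpf and 25.8% and 25.4% at 72 hpf, so only 96 hpf B stood apart. Retinal or neural-like cells were 25.7% and 13.6% at 96 hpf against 36.6% and 29.7% at 72 hpf and did not overlap. Their difference of means, -13.4 percentage points, had an exact two-sided permutation p of 0.333, which is the smallest that 2 libraries against 2 allow. Pigment-like cells were 6.90% and 0% at 96 hpf and 0% and 5.33% at 72 hpf, where 0 of 1452 cells had an exact binomial upper limit of 0.254% and 0 of 722 cells one of 0.510%.

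The shares of epithelium-like and retinal or neural-like cells depended on how finely cells were clustered. A shallow cluster of 201 cells at 72 hpf, 175 of them from 72 hpf B and with a median of 802 UMIs, carried 5 of 13 retinal progenitor markers at the resolution used. At a clustering resolution of 0.5 most cells of 72 hpf B in this class fell in a cluster with epithelial markers, and another cluster of 162 cells stayed unnamed. Epithelium-like cells were then 19.0% and 41.4% at 96 hpf against 29.2% and 52.2% at 72 hpf, and retinal or neural-like cells were 29.5% and 21.3% at 96 hpf against 12.6% and 1.22% at 72 hpf. The direction of both differences turned round, whereas mesenchyme-like cells stayed at 44.6% and 37.3% at 96 hpf against 37.5% and 39.3% at 72 hpf. Binomial intervals cover counting error only.

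**Figure D3:**
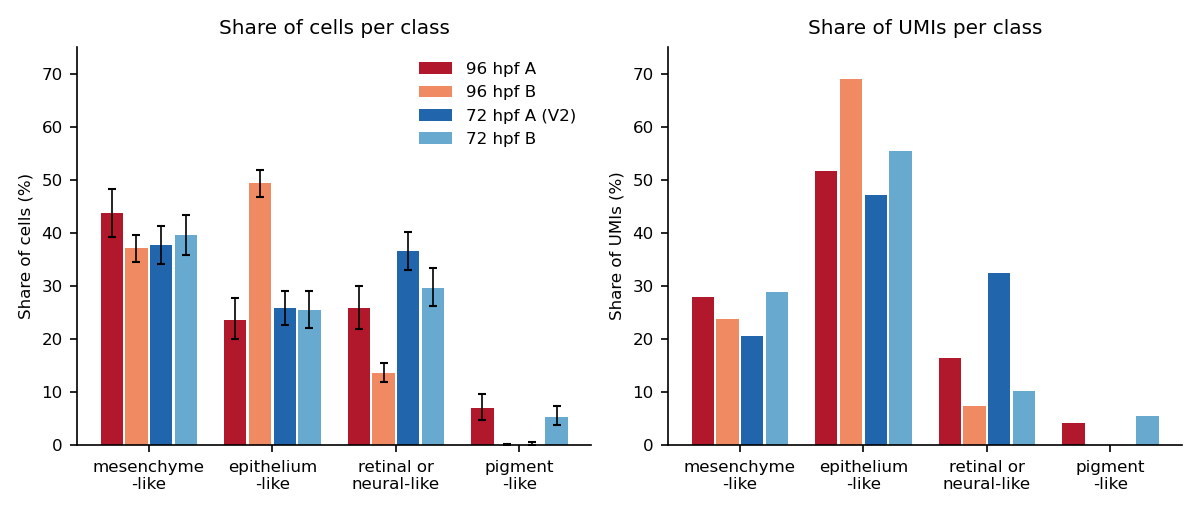
Share of cells and share of UMIs (%) of each class in the 96 hpf and 72 hpf libraries, 1 bar per library, with exact 95% binomial intervals for the cells. Mesenchyme-like cells lie between 37.1% and 43.7% in all libraries, and the 49.3% of epithelium-like cells in 96 hpf B lies above the other 3 libraries.

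Each gene's difference of mean CPM was then split exactly into a part from the classes' shares of UMIs (composition) and a part from CPM within the classes. A share of UMIs rises with the number of cells and with the UMIs per cell, and the split does not tell these apart. Epithelium-like cells had median depths of 2290 and 1860.5 UMIs in the 96 hpf libraries A and B, against 6545 and 2727 in the 72 hpf libraries A and B. The within-class part was the larger in 7817 of 8918 genes (87.7%), and in 3988 of the 4101 genes that did not overlap between the ages. Composition made up 17.5% of the summed absolute parts, and the 2 parts had opposite signs in 3876 genes. On the log2 scale the median size was 0.09 for composition and 0.46 for the within-class part. For 96 hpf A and 72 hpf B alone the within-class part was the larger in 91.5% of genes. Without 96 hpf A it was the larger in 79.5%, the lowest share among the alternatives tried. A within-class part still holds any shift between finer cell types of a class, and splitting mesenchyme-like cells into finer classes gave 85.3%.

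Named genes showed how the parts combined. Of the difference of scinla, 5709 CPM lay within classes and 204 CPM in composition. That within-class part includes a shift inside the mesenchyme-like class. Its annular ligament cells, named in part by scinla, were 76 of 478 and 260 of 1452 cells at 96 hpf. At 72 hpf they were 91 of 722 and 62 of 657. scinla had 48355 and 32617 CPM in these cells at 96 hpf against 2251 and 6493 CPM at 72 hpf. Counted among them at 96 hpf is a cluster of 73 cells that held 1.54% of the scinla UMIs of the mesenchyme-like class. krt91, a keratin of basal epithelium, had 18814 and 28146 CPM at 96 hpf against 4560 and 12275 CPM at 72 hpf, and 12603 CPM of the difference lay within classes against 2460 CPM in composition. For krtt1c19e, another basal keratin, the parts were of like size, 2472 CPM within classes and 2102 CPM in composition. The 2 parts opposed each other for krt4, a keratin of superficial epithelium, at -3524 CPM within classes and 1854 CPM in composition, and its log2 difference over all cells was 0.00. Over the 16 tested keratins the median log2 part was 0.23 for composition and -0.13 within classes, beside -0.05 and -0.13 over all genes. Within epithelium-like cells the median log2 difference of the keratins was 0.07. tmsb4x and pfn1, which bind actin monomers, had within-class parts of 6306 and 2873 CPM and composition parts of 2471 and 1486 CPM. Composition parts rest on the class shares, and the epithelium-like share of cells stood apart in 96 hpf B alone. Its difference of means was 10.9 percentage points here and -10.5 at a clustering resolution of 0.5. The composition parts of these keratins, tmsb4x and pfn1 are therefore not settled in size or sign. hmgn2, a nucleosome-binding protein, had -2577 CPM within classes and -601 CPM in composition. tyrp1b, a melanin enzyme, was a case of composition outweighing the rest, at -403 CPM against -81.2 CPM within classes. Its levels were 2539 and 13.2 CPM at 96 hpf against 19.5 and 3500 CPM at 72 hpf, high in the 2 libraries that held pigment-like cells.

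A few large parts rested on single libraries. NR_145818, the feature of highest level, had 28370 and 53069 CPM at 96 hpf against 291 and 58902 CPM at 72 hpf, low in 72 hpf A alone, and its log2 ratio in the shared batch was -1.05 against 0.79 over the 4 libraries. fabp7a, a fatty acid binding protein of retinal progenitors and glia, had 1161 and 662 CPM at 96 hpf against 7920 and 563 CPM at 72 hpf. Its log2 value was -2.15 over the 4 libraries and 1.04 in the shared batch. lgals1l1, a galectin, had 1342 and 1776 CPM at 96 hpf against 5043 and 1564 CPM at 72 hpf, also high in 72 hpf A alone.

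**Figure D4:**
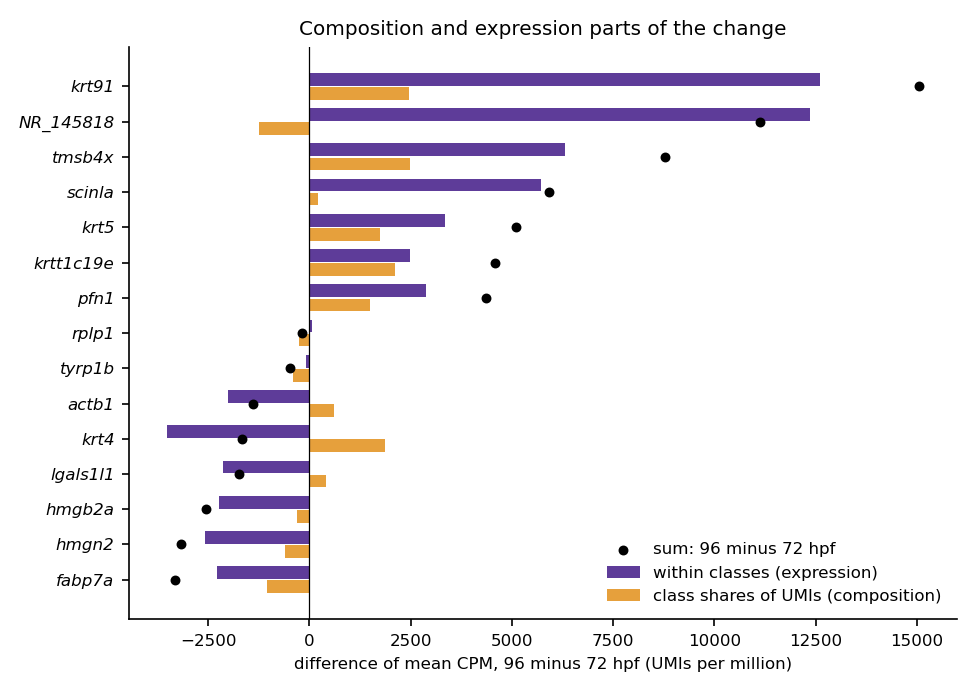
Composition and within-class parts (CPM, 96 minus 72 hpf) of the genes with the largest parts. krt91 (2460 and 12603 CPM) and tmsb4x (2471 and 6306 CPM) have both parts above 0, and krt4 (1854 and -3524 CPM) has parts of opposite sign.

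Within mesenchyme-like cells the genes that rose were scinla, lpin1, timp4.3 and the S100-family genes icn and s100w, and cd59 fell. edgeR called 5 of 5883 genes higher at 96 hpf (0.085%) and 1 lower (0.017%), with 629 (10.7%) at an unadjusted p under 0.05. By CPM of the class, 16.5% of genes were higher and 30.4% lower in both 96 hpf libraries. icn, an ictacalcin of the S100 family, rose to 4221 and 7334 CPM of the class at 96 hpf, against 176 and 241 CPM at 72 hpf (log2 4.96 ± 0.56, edgeR adjusted p = 0.0386, shared batch 4.13). Over all cells icn had 3896 and 4967 CPM at 96 hpf and 5066 and 5608 CPM at 72 hpf, since it was also present in epithelium-like cells. scinla rose to 24297 and 22386 CPM at 96 hpf, against 1544 and 2533 CPM at 72 hpf (3.67 ± 0.45, adjusted p = 0.0434). lpin1 rose to 99.1 and 104 CPM, against 2.83 and 5.47 CPM (4.71 ± 0.57, adjusted p = 0.0434).

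Further S100, inhibitor and surface genes were at or near 0 at one age. s100w had 74.3 and 69.8 CPM at 96 hpf against 1.42 and 1.37 CPM at 72 hpf, 168 UMIs against 2, a ratio of 51.0 with a counting interval of 13.9 to 424 (adjusted p = 0.0386). timp4.3 had 216 and 238 CPM at 96 hpf and 0 in both libraries at 72 hpf, at least 111-fold higher when 0 is set to 3 UMIs over the group (adjusted p = 0.0386). cd59, in mammals a membrane protein that inhibits complement lysis, was at 0 in both 96 hpf libraries against 72.2 and 94.3 CPM at 72 hpf, at least 65.9-fold lower (adjusted p = 0.0386). Most UMIs of icn, s100w and timp4.3 lay in 1 cluster of 73 cells at 96 hpf, named by annular ligament markers. icn and timp4.3 were among its 10 leading genes and led no mesenchyme-like cluster of 72 hpf. It held 82.0% of the icn UMIs of the class at 96 hpf, 78.6% of those of s100w and 71.1% of those of timp4.3. Without this cluster, a look added after the data were seen and not tested, icn had 2315 and 983 CPM, s100w 26.6 and 14 CPM and timp4.3 76.3 and 77.2 CPM at 96 hpf, still above both 72 hpf libraries. The same cluster held 5.35% of the lpin1 UMIs and 1.54% of the scinla UMIs of the class at 96 hpf. The class had 209 and 538 cells in the 96 hpf libraries A and B. For its 73 cells the cluster was thus low in scinla, and its identity as annular ligament is not settled. The tests within classes were not repeated without called doublets. With 72 hpf A left out none of the 6 genes passed, with adjusted p between 0.0574 and 0.0851, and with 72 hpf B left out 1280 genes were called.

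The share of cells with a scinla UMI was compared after each cell was thinned to 500 UMIs. In mesenchyme-like cells it was 36.4% and 35.7% at 96 hpf, against 4.80% and 9.23% at 72 hpf. The exact 95% intervals of the libraries did not overlap between the ages, but they cover counting error over cells only and are no test of age. scinla is also a marker that named clusters of this class. Unthinned shares were 50.2% and 52.8% at 96 hpf against 9.93% and 13.5% at 72 hpf, at median depths of 1599 and 1978 UMIs per cell at 96 hpf and 2273 and 1736 at 72 hpf. In retinal or neural-like cells, where scinla was not expected to be made, the thinned share was 17.1% and 6.06% at 96 hpf and 2.29% and 9.23% at 72 hpf, with median depths between 912 and 2692 UMIs. Most 72 hpf B cells of this retinal or neural-like class fell with epithelial markers at the lower clustering resolution. Their 9.23%, and their 332 CPM given below, are therefore not a settled background level. The 72 hpf shares of the whole mesenchyme-like class lay within the range of the retinal or neural-like shares, also without 72 hpf B. At 72 hpf that leaves only the 2.29% of 72 hpf A, which lay below both mesenchyme-like shares. The annular ligament cells of the mesenchyme-like class did not all lie within that range. Those cells had shares of 9.89% and 27.4% at 72 hpf, at 2251 and 6493 CPM, where retinal or neural-like cells had 12.6 and 332 CPM. In epithelium-like cells the thinned share was 20.4% and 22.3% at 96 hpf and 20.4% and 18% at 72 hpf, with overlapping intervals.

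Within epithelium-like cells lpin1, gyg1b, slc22a13b and mmp30 rose, and zgc:194627 fell. edgeR called 6 of 6566 genes higher (0.0914%) and 1 lower (0.0152%), with 1157 (17.6%) at an unadjusted p under 0.05. By CPM of the class, 14.6% of genes were higher and 41.4% lower in both 96 hpf libraries. lpin1 rose to 52.6 and 55.1 CPM of the class at 96 hpf, against 1.86 and 1.42 CPM at 72 hpf (log2 5.30 ± 0.51, adjusted p = 0.0356, shared batch 4.90). gyg1b, a glycogenin that primes glycogen synthesis, rose to 338 and 159 CPM, against 4.95 and 12.8 CPM (5.12 ± 0.60). slc22a13b rose to 59.7 and 96.5 CPM, against 1.24 and 3.56 CPM (5.37 ± 0.60). mmp30 rose to 437 and 350 CPM, against 33.4 and 52.7 CPM (3.51 ± 0.40). These genes shared the adjusted p of 0.0356 by edgeR, and none overlapped between the ages.

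Other calls in epithelium-like cells rested on particular cells or low levels. si:ch211-251b21.1 had 81.1 and 70.15 CPM at 96 hpf against 3.1 and 7.12 CPM at 72 hpf, but it leads a cluster of 132 shallow cells at 96 hpf whose leading genes were mixed, and with that cluster left unnamed its log2 difference was 0.57 and it was not called (edgeR adjusted p = 0.683). zgc:194627 fell to 1.78 and 0.974 CPM at 96 hpf, against 33.4 and 33.5 CPM at 72 hpf (-4.43 ± 0.54, adjusted p = 0.0401), and is named after its value was seen, as its mean was under 20 CPM. At a resolution of 0.5 edgeR called 61 genes in this class, and leaving out 1 library gave 54 to 1423, with the spread taken from the 2 libraries of the other age. agr2, with 89.1 and 43.8 CPM at 96 hpf against 2180 and 436 CPM at 72 hpf in this class (adjusted p = 0.0891), and ptgdsb.1, with 3491 and 1164 CPM against 340 and 414 CPM (adjusted p = 0.0770), were not called.

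Among retinal or neural-like cells edgeR called 0 of 4695 genes in either direction (0.0%), with 158 (3.37%) at an unadjusted p under 0.05 and 1 call by DESeq2. By CPM of the class, 763 genes (16.3%) were higher and 709 lower in both 96 hpf libraries. At a clustering resolution of 0.5 most 72 hpf B cells of this class fell with epithelial markers. These counts, and the median of the class below, therefore rest on cells of unsettled identity in that library. The mitosis list kept its side in each class, with a median of -0.47 here, -2.45 among epithelium-like and -0.90 among mesenchyme-like cells, beside medians over all genes between -0.015 and -0.002. ube2c had 6.24 and 8.18 CPM in epithelium-like cells at 96 hpf against 128 and 59.8 CPM at 72 hpf, which did not overlap but was not called (adjusted p = 0.0712).

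Where a change was called in one class, its difference from the other class was tested by edgeR with the library as a block, a test added after the data were seen. It called 182 of 8032 genes (2.27%), among them icn, whose log2 change in epithelium-like minus that in mesenchyme-like cells was -5.56 (adjusted p = 3.4e-05), and scinla, at -2.44 (adjusted p = 0.0134). lpin1, called in both classes, had a difference of 0.60 that was not called.

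Some genes lower at 96 hpf over all cells had their highest 72 hpf level in mesenchyme-like cells. cxcl12b had 9.91 and 7.37 CPM in mesenchyme-like cells at 96 hpf against 214 and 84.7 CPM at 72 hpf. gsc had 43.0 and 15.9 CPM in the same class at 96 hpf against 143 and 231 CPM at 72 hpf. nkx3-2 had 16.5 and 23.3 CPM there at 96 hpf against 183 and 87.5 CPM at 72 hpf. None of these overlapped within the class, and their adjusted p by edgeR lay between 0.113 and 0.142.

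Setting 96 hpf A against 72 hpf B alone removed the difference of batch as the table of cells gives it, at the price of 1 library per age and no test. The 24 genes of smallest p were picked for libraries that did not overlap, which fixes their direction in this pair. The size of their ratios also comes from values that chose them, so it describes these 2 libraries and is no independent support. Other genes did turn, among them col4a5, fabp7a and NR_145818. Counts over all genes shifted with the library left out: without 72 hpf B edgeR called 1071 genes over all cells, without 96 hpf A 89, without 96 hpf B 67 and without 72 hpf A 4. Each of these fits leaves 1 library at one age, which is assumed to vary like the 2 libraries of the other age that alone give its spread, so these counts show what the call rests on rather than how many genes changed. Without 72 hpf A all 4 calls were lower at 96 hpf.

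**Figure D5:**
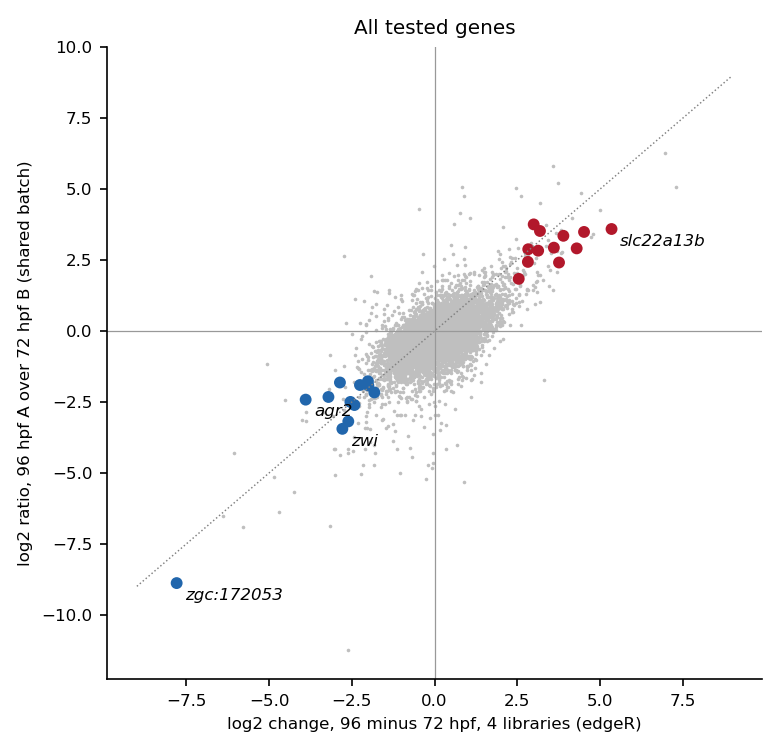
Log2 ratio of 96 hpf A over 72 hpf B against the log2 change over the 4 libraries (edgeR), 1 grey point per tested gene, with the 12 higher (red) and 12 lower (blue) named genes and a dotted line of equality; both axes use 96 hpf A and 72 hpf B. The coloured genes were picked for libraries that did not overlap, which fixes the sign of both axes, and their sizes differ, as for slc22a13b (5.35 and 3.60) and agr2 (-3.90 and -2.42), while zgc:172053 is drawn at fitted values that depend on the prior count.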

How the data were processed

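Per the submitters' processing notes, 10x Genomics reads were processed with Cell Ranger 6.0 on GRCz11, and the authors deposited UMI counts per gene and cell, 1 matrix per time point, with a table of cells. These counts were not normalized and were summed over all cells of a library and per gene symbol (16283 features, 15413 symbols). RefSeq names are from the gene table supplied with the data. No column of per-sample values was left unmapped. The members, lists and tests were chosen with earlier results of these data known.

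Counts were tested with edgeR 4.0.16 (glmQLFit and glmQLFTest, TMM, filterByExpr, R 4.3.3) with Benjamini-Hochberg adjustment at 0.05, 96 minus 72 hpf, after a check on simulated data. Values after ± are approximate SEs, taken as the absolute log2 difference divided by the square root of the F statistic of the test. DESeq2 1.42.0, limma 3.58.1, other filters, clusterings and left-out libraries were alternatives. Batch could not be a term, since only 96 hpf A and 72 hpf B share one. Cells were clustered per time point (100 principal components, 20 neighbours, Leiden resolution 1, leidenalg 0.10.2, Python 3.11.15) and clusters named by marker lists. Clusters with markers of several lists of 1 broad class took that class. Doublets (26 cells, 0.786%, called from simulated sums of 2 cells per library) were kept and left out in an alternative.

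Over all cells the named genes are, per direction, the 12 with the smallest p among genes at 20 CPM or more that did not overlap, as none was called. For parts they come from the 6 largest of each sign, within classes from up to 5 called per direction, and from lists from up to 4 members of highest mean CPM. Genes of those rules are also shown within classes. Precision is limited by 2 libraries per time point, with 2173620 to 7443148 UMIs each.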

Additional observations from a re-analysis of the deposited data

Results flagged for a closer look

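For 6 of the genes called within a class, the change between 96 and 72 hpf differed between epithelium-like and mesenchyme-like cells. The difference was tested by edgeR with the library as a block and a class by time term, a test added after the data were seen, which called 182 of 8032 genes (2.27%). icn had the smallest adjusted p: its log2 change in epithelium-like minus that in mesenchyme-like cells was -5.56 (adjusted p = 3.4e-05). In epithelium-like cells icn had 5259 and 4669 CPM at 96 hpf against 10507 and 9830 CPM at 72 hpf, so the ages did not overlap in either class and stood in opposite order. s100w had a difference of -6.07 (adjusted p = 4.7e-05), with 42.8 and 78.5 CPM in epithelium-like cells at 96 hpf against 83.0 and 119 CPM at 72 hpf. scinla had -2.44 (adjusted p = 0.0134), and it is also a marker that named clusters. timp4.3 had -8.77 (adjusted p = 0.00128), a fitted value that depends on the prior count because the gene was at 0 in mesenchyme-like cells at 72 hpf. In mesenchyme-like cells at 96 hpf, 82.0% of the icn, 78.6% of the s100w and 71.1% of the timp4.3 UMIs lay in 1 cluster of 73 cells. cd59 had 9.38 (adjusted p = 0.0188), also dependent on the prior count, since it had under 1 CPM in epithelium-like cells of every library. si:ch211-251b21.1 had 3.39 (adjusted p = 0.0038) and rests on the cluster of mixed leading genes. For lpin1, called in both classes, the difference was 0.60 and was not called (adjusted p = 0.883).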

How the results depend on the processing

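Over all cells, where edgeR called 0 genes, it called 0 without TMM, with all 10 libraries in the fit, with the subsampled counts, with doublets or shallow copies left out and with NR_145818 left out of the totals, and limma with each cell weighted equally called 0. DESeq2 called 87, no filter on low counts 201 (of 13804), the replicate block 5 and leaving out 1 library 4 to 1071. Each fit without a library takes its spread from the 2 libraries of the other age, and assumes that the lone library varies alike. Within mesenchyme-like cells the 6 calls became 141 with DESeq2, 236 with the block, 283 with no filter and 0 to 1280 with a library left out. Within epithelium-like cells the 7 calls became 157, 99 and 512 in the same order, 13 without shallow copies, 61 at resolution 0.5 and 54 to 1423 with a library left out. Within retinal or neural-like cells there were 1 call with DESeq2, 67 with no filter and 0 to 274 with a library left out. The letters A and B share a number only: deviations of A from B at the 2 ages had r = 0.00787, so the block is not a pairing.

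At resolution 0.5 the difference of shares was -10.5 percentage points for epithelium-like cells (10.9 as reported) and 18.5 for retinal or neural-like cells (-13.4 as reported). The share of genes with the larger within-class part was 79.5% to 93.2% with a library left out.

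Of 69 gene results, 10 changed sign under some alternative. Over the libraries left out in turn, log2 values ran between -0.38 and 0.33 for krt4, -3.07 and 0.97 for fabp7a, -1.60 and 0.32 for lgals1l1, -0.32 and 0.019 for actb1, -0.19 and 7.23 for NR_145818, -6.64 and 5.99 for tyrp1b, -0.18 and 0.53 for rplp1, and -0.40 and 0.23 for icn. Without TMM krt4 had -0.21 and rplp1 -0.033. With cells weighted equally krt4 had -0.12, tyrp1b 0.23, rplp1 -0.17 and foxc1b -0.023. krt4 had -0.022 with 10 libraries, -0.033 with the block and -0.024 without doublets. si:ch211-251b21.1 within epithelium-like cells had -4.08 at resolution 0.5. The cause of these changes was not tested. Leaving out shallow copies, NR_145818 and the mixed cluster, and splitting the mesenchyme-like class, were alternatives chosen after the data were seen.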
